A study of Mus musculus with 24 samples.

Results

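Open chromatin was followed at the cardiac T-box genes Tbx2, Tbx3, Tbx4, Tbx5 and Tbx20 while mouse embryonic stem cells differentiated towards cardiomyocytes. A peak was assigned to one of these genes if its summit lay inside the gene body, or, where it lay in no protein-coding gene, if that gene body was the nearest and within 50 kb. Overlapping peaks of all time points were merged into regions, and 54 of 128679 regions belonged to the 5 genes, with 241 summits of 518537 over all lists. The 54 regions comprised 7 at Tbx2, 15 at Tbx3, 9 at Tbx4, 16 at Tbx5 and 7 at Tbx20. Of these, 22 were centred inside a gene body and 32 outside. The farthest summit position taken in lay 48248 bp from its gene (Tbx3, fold enrichment 4.96 at D6 and 3.08 at D8). The nearest summit left out lay 50300 bp away (Tbx5 at D8, fold enrichment 2.90).

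The cells were of the A2lox.cre line, an established mouse embryonic stem cell line, and all groups shared this genotype. ATAC-seq, in which the transposase Tn5 inserts adapters into open DNA, was applied to 24 samples, with 2 biological replicates per time point. The 12 time points were 2i, in which inhibitors keep stem cells naive and which the labels call embryonic stem cells, days 0 to 8 (D0 to D8), which they call intermediates, and D10 and D15, which they call cardiomyocytes. Both replicates of a time point share 1 deposited peak list, so no value below has a replicate spread and no difference between time points was tested.

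T-box proteins bind DNA through a shared domain, the T-box, and act as activators or repressors during development. Tbx5 works with Gata4 and Nkx2-5 to switch on genes of the atria and the left ventricle, and Tbx20 is needed for growth and patterning of the heart chambers. Tbx2 and Tbx3 repress chamber genes in the atrioventricular canal and the outflow tract, and Tbx3 also acts in the conduction system and in naive stem cells. Tbx4 is best known from the hindlimb and the lung. Tbx2 with Tbx4, and Tbx3 with Tbx5, are neighbours that descend from duplication of an ancestral gene pair. ATAC-seq peaks show open DNA and do not measure expression.

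Start sites of these genes differ in base composition, and the 250 bases before the start are shown for the members that the RefSeq promoter table (assembly GRCm38.p6, the assembly of mm10) holds, Tbx20 and Tbx4, and for Gm5563, a long noncoding RNA gene that overlaps the body of Tbx5. Tbx2, Tbx3 and Tbx5 have no entry in that table. Sequences are written 5′ to 3′ on the strand of the gene, and capitals mark each CG dinucleotide (CpG).
Tbx20, chr9:24774304-24774553, minus strand: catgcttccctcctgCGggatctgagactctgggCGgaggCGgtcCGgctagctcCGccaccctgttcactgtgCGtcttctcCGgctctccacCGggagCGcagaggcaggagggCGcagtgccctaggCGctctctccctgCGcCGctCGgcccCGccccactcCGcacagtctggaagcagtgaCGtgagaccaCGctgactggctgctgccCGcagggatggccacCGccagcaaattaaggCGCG
Tbx4, chr11:85896515-85896764, plus strand: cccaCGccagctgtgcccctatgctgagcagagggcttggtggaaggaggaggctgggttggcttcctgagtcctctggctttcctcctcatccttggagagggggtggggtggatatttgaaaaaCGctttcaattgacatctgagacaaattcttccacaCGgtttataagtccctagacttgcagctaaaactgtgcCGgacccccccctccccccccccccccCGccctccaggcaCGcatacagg
Gm5563, chr5:119831987-119832236, minus strand: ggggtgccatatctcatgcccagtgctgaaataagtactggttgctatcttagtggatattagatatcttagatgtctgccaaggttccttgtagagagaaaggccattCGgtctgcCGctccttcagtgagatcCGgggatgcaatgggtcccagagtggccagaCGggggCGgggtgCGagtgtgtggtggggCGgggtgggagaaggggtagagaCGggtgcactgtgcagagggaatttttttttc

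The Tbx20 window held 22 CpG and was overlapped by a peak in all 12 lists. Its CpG count lay at the 82.5th percentile of 21045 windows of protein-coding genes, whose median was 10. The Tbx4 window, whose start lies inside the annotated gene body and not at its left end, held 6 CpG and was overlapped in no list. The printed window of Gm5563 held 8 CpG and was overlapped at D8 only. The other window of Gm5563 in the table (chr5:119807657-119807906) also held 8 CpG and was overlapped in no list. Over all protein-coding windows, 41.6% were overlapped in all 12 lists and 34% in none. CpG number and calls moved together: 0.322% of windows with 0 to 1 CpG were overlapped in all 12 lists, 27.8% with 6 to 9, and 82.6% with 20 or more. Of the windows with 6 to 9 CpG, 26.9% were overlapped in no list, as the Tbx4 window was.

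**Figure D1:**
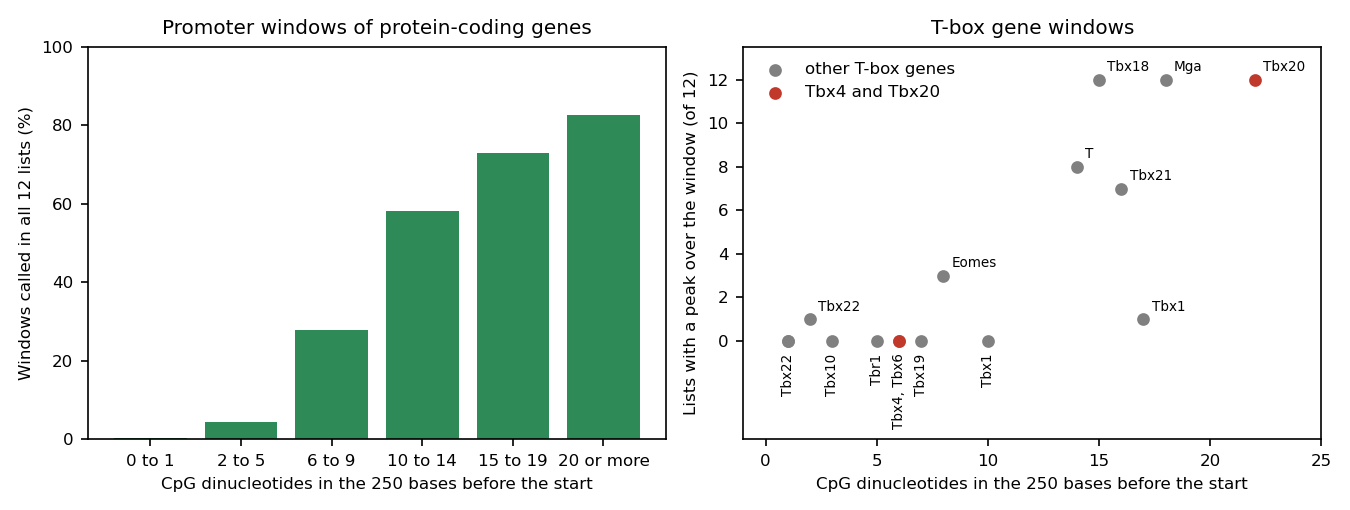
Left, percentage of protein-coding promoter windows overlapped by a peak in all 12 lists (y axis), by number of CpG in the 250 bases before the start (x axis). Right, number of lists with a peak over the window of each T-box gene (y axis) against its CpG count (x axis), where Tbx4 shares its point with Tbx6 and Tbx22 has 2 windows at the same point. Tbx20, with 22 CpG, sits at 12 lists and Tbx4, with 6, at 0.

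Among 13 T-box genes with 16 windows, 3 windows were overlapped in all 12 lists (Tbx20, Tbx18 and Mga) and 8 in none. T (Brachyury), the founding member of the family, which acts in the primitive streak, held 14 CpG and was overlapped in 8 lists. Eomes, which acts in the same embryonic stage, held 8 CpG and was overlapped in 3 lists, D4, D5 and D6. Within 1 kb of the left end of Eomes, however, a summit lay in 11 lists. The following 3 short motifs were searched on both strands. The letters AGGTGT, the core of the T-box binding site, were in 11.1% of the protein-coding windows. Those of a site for Gata factors, AGATAA, were in 8.84%. Those of the TATA box, written TATAAA, were in 11.7%. None of the motifs was in the Tbx20 window. The Tbx4 window held the TATA box letters on the opposite strand, where they read TTTATA in the sequence as printed, and held neither of the others.

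Most regions at the 5 genes were called in the middle of the course and not at its end. A region was called transient if 2 or more lists in a row between D1 and D8 held it and the lists of 2i, D0, D10 and D15 did not. There were 24 transient regions of 54 (44.4%), against 14.7% of all regions and 15.7% of the regions in or within 50 kb of any protein-coding gene. Late-gained regions, found at D10 and D15 and at neither 2i nor D0, numbered 0 of 54, against 3.8% of all regions and 4.11% of those near a gene. In bulk samples, fewer cells with an open site and less opening per cell cannot be told apart. A region absent from a list was not called there, which does not show that it was closed.

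By list, the regions called at the 5 genes numbered 11, 9 and 7 from 2i to D1, then 12, 19 and 8 from D2 to D4. They numbered 21, 25, 39 and 28 from D5 to D8, and 6 and 5 at D10 and D15. Few regions were thus called early, more at D3, few at D4, most at D7 and fewest at the end. All regions, too, were called most at D7 and least at D10 and D15 (20.2% and 19.5%, against 11.1% and 9.26% of the 54). At 2i and D4, 20.4% and 14.8% of the 54 were called, against 31.7% and 38.0% of all regions. The share of the 54 was above that of all regions at D3 and from D5 to D8, and below it in every other list. At D7, 39 of 54 regions (72.2%) were called, against 44.6% of all regions, and at D7 or D8 41 of 54 (75.9%), against 49.1%. Neither late list held 47 of the 54 (87.0%), against 75.2% of all regions and 70.9% of those near a gene. No list from 2i to D3 held 31 of the 54 (57.4%), against 47% of all regions.

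List length moved with these counts: the D7 list was the longest, with 66993 peaks, and the D1 list the shortest, with 31324. With the 31324 peaks of highest −log10 q taken from every list, the regions called numbered 9, 9 and 7 from 2i to D1 and 9, 15 and 4 from D2 to D4. The later lists then held 14, 24, 12 and 14 from D5 to D8, and 6 and 4 at D10 and D15. The highest count thus moved from D7 to D6, and D3 was still above D2 and D4, and D10 and D15 were still low. Transient regions with equal lists numbered 10 of 38, against 10.9% of all regions, and without the D7 and D8 lists 11 of 41, against 9.12%.

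**Figure D2:**
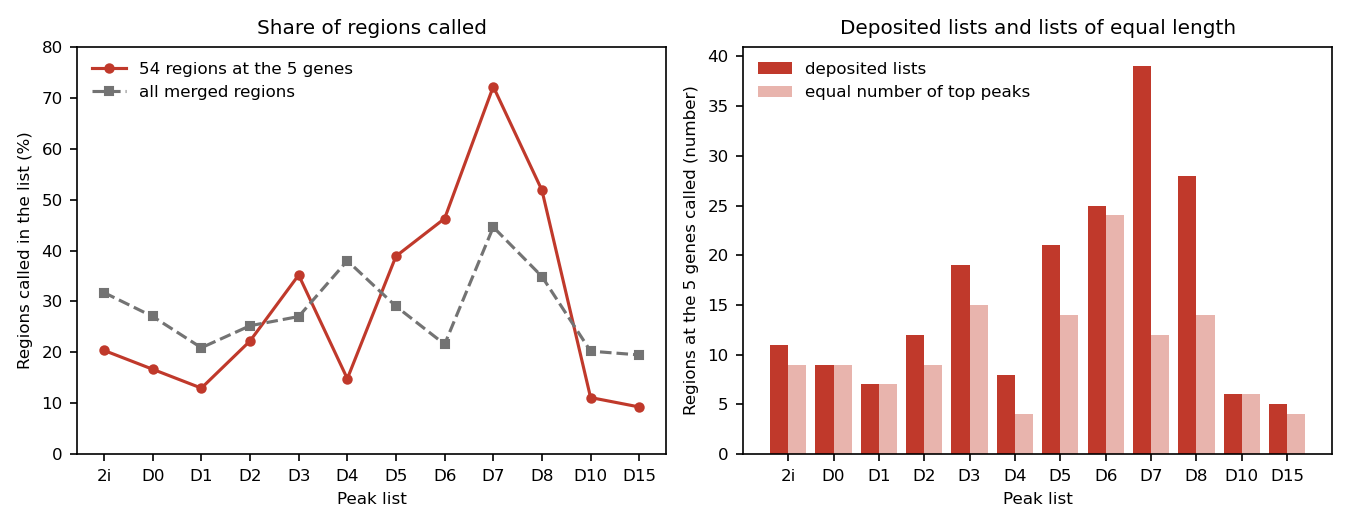
Left, percentage of the 54 regions at the 5 genes and of all merged regions called in each peak list (y axis) by time point (x axis). Right, number of regions at the 5 genes called in the deposited lists and with 31324 top peaks from each list, where the highest bar moves from D7, at 39 regions, to D6, at 24.

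As a share of each list, summits at the 5 genes made up 2.82 per 10000 peaks at 2i (Wilson 95% interval 1.65 to 4.83, counting error only), 5.53 at D3 (3.65 to 8.37) and 1.61 at D4 (0.845 to 3.05). The share was highest at D6, at 8.54 (5.91 to 12.3), and was 7.09 at D8 (5.16 to 9.72). It was 3.68 at D10 and 3.31 at D15 (1.89 to 5.79). The intervals of 2i, D10 and D15 overlapped each other. Each interval counts summits as separate, though 1 region can hold several, as with 12 summits in 5 regions at D15. No difference between lists was read from the intervals.

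D4 stood apart from its neighbours. Of 19 regions called at D3 (35.2%, against 27% of all regions), 13 were not called at D4 (68.4%), against 40.6% of all regions called at D3. They comprised 5 at Tbx3, 5 at Tbx5, 2 at Tbx4, 1 at Tbx2 and 0 at Tbx20. The D4 list was the second longest, with 56053 peaks. Its peaks of a fold enrichment of 4.9 to 5.1 had a median −log10 p of 7.71, against 11.6 at D3 and 8.62 at D5, so the same enrichment carried less statistical weight there. The part of that difference in the D4 gap was not tested.

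Only 4 of the 54 regions were called in all 12 lists (7.41%, against 8.62% of all regions), and each lay at or near a gene end: 2 at Tbx2, 1 at Tbx3 and 1 at Tbx20. Early-lost regions, called at 2i and D0 and at neither D10 nor D15, numbered 5 (9.26%, against 9.56%), with 3 at Tbx3, 1 at Tbx4 and 1 at Tbx20. Another 15 were called in 1 list (27.8%, against 43.7%), of which 7 were called at D7 alone. At least 5 lists held 12 regions (22.2%, against 23.1%). The shares in all lists, lost early or in at least 5 lists were thus near those of all regions. With equal lists, 2 of 38 regions were called in all 12 lists (against 11.8% of all regions) and 3 were early-lost (against 9.72%). The 54 regions had a median width of 614.5 bp, against 502 bp for all regions. Those called in all 12 lists were the widest group, with a median of 1379.5 bp. A region joins the overlapping peaks of every list that holds it, so its width can grow with the number of lists.

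**Figure D3:**
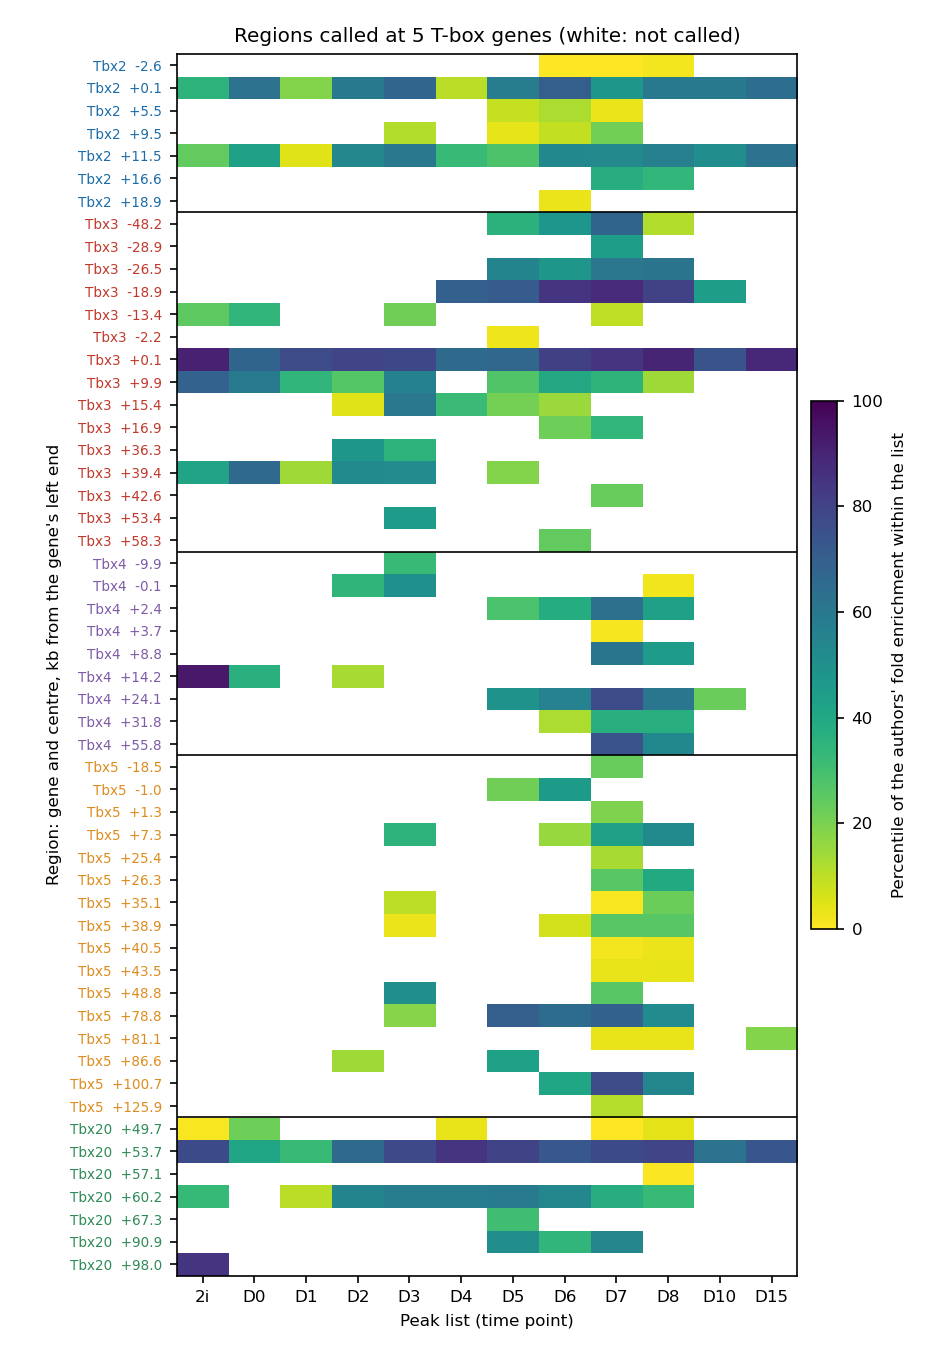
Each of the 54 regions (y axis, by gene and by distance in kb of the region's centre from the left end of the gene) in each of the 12 peak lists (x axis), white where not called. Colour gives the percentile of the authors' fold enrichment among the peaks of that list. The 4 filled lines are the regions called in all 12 lists, and most other calls lie from D5 to D8.

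The 31 list patterns seen over the 54 regions were headed by D7 alone (7 regions), D7 with D8 (6), all 12 lists (4), D5 to D8 (3) and D6 to D8 (3). Of the 24 transient regions, 17 were last called at D8, 16 were called at both D7 and D8, and 8 were called at D3. In the accounts by gene below, fold enrichment is the authors' linear ratio of signal to background for the strongest peak of a region in a list, and its percentile is among the peaks of that list. Because the lists were called separately, a difference in fold enrichment or percentile between lists was not read as a change. Regions are named by the distance of their centre from the left end of the gene by coordinate, and exon or intron was not determined.

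Tbx5, the activator of atrial and left ventricular genes, is 88.7 kb long (chr5:119796514-119885220), and 12 of its 16 regions lay inside the gene body. It had no region called at 2i, D0 or D1, and then 1, 5 and 0 from D2 to D4. From D5 to D8 it had 3, 5, 14 and 9, and at the end 0 at D10 and 1 at D15. All 5 regions called at D3 were missing at D4, and all 5 were called again at D7. As a share of each list, Tbx5 summits numbered 2.39 per 10000 peaks at D7 (interval 1.47 to 3.88) and 2.42 at D8 (1.42 to 4.15). At D10 there were 0 of 32641 peaks, which allows a share of up to 0.919 per 10000 (3 counts), and at D4 0 of 56053, which allows up to 0.535.

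Transient regions made up 9 of the 16 at Tbx5. Of 370 protein-coding genes with 15 to 17 regions, 0.811% had 9 or more transient regions, and the median was 3. Regions called at D10 or D15 numbered 1 at Tbx5, against a median of 4, and 11.1% of those genes had 1 or fewer. Such regions numbered 2 at Tbx2, 2 at Tbx3, 1 at Tbx4 and 1 at Tbx20. The medians over genes of like region number were 2, 3, 2 and 2 in that order. As many or fewer were found at 70.3%, 33.3%, 28.5% and 38.2% of those genes. With equal lists Tbx5 had 7 regions, of which 2 were transient, and the regions called from D6 to D8 numbered 5, 2 and 4.

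The strongest region of Tbx5 by fold enrichment lay 100.7 kb from its left end and 11.96 kb beyond its right end, at chr5:119896756-119897612. It was called at D6, D7 and D8, with fold enrichments of 4.45, 8.59 and 5.01, and at D7 it stood at the 77.3rd percentile. The region at +78.8 kb (chr5:119874707-119876002), near the right end of the body, was called in the most lists of any at Tbx5. It had fold enrichments of 3.73 at D3 and of 7.90, 7.07, 7.09 and 4.83 from D5 to D8. Both regions were called at none of 2i, D0, D10 and D15.

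Inside the left part of the body, the region at +7.3 kb (chr5:119803443-119804253) was called at D3, D6, D7 and D8, with fold enrichments of 4.85, 3.30, 4.61 and 4.88. The region at +38.9 kb (chr5:119834871-119835975) was called in the same 4 lists, with values of 2.79, 2.93, 3.73 and 3.63. The region at +35.1 kb (chr5:119831190-119832017), which holds the RefSeq start of Gm5563 whose upstream window is printed above, was called at D3, D7 and D8 with values of 3.43 or less. These 3 regions shared their calls at D3, D7 and D8 and their absence at D4, D5, D10 and D15, and none passed a fold enrichment of 5.

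The ends of Tbx5 had few calls. A region 1.0 kb to the left of its left end (chr5:119795220-119795905) was called at D5 and D6, with fold enrichments of 3.82 and 4.74, and no other list had a summit within 1 kb of either end. Of all protein-coding genes, 44.4% had a summit within 1 kb of an end in all 12 lists and 29.3% in none. The 1 region called at D15 was at +81.1 kb (chr5:119877354-119877806), with fold enrichments of 2.67 at D7, 2.69 at D8 and 3.63 at D15, where it stood at the 18.6th percentile.

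Tbx20, the factor needed for chamber growth, lies on the minus strand (chr9:24720812-24774303, 53.5 kb), so its right end is its start. The region over that start (chr9:24773806-24775182), which contains the CpG-rich sequence printed above, was called in all 12 lists. Its fold enrichment was lowest at D1, at 4.39, and highest at D3, at 13.1, and its percentile ran from 32.6 at D1 to 84.5 at D4. The start of Tbx20 was thus open from the stem cell stage on by these calls, and D4 was the list in which it ranked highest.

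The other 6 regions of Tbx20 followed different courses. The region at +60.2 kb (chr9:24780659-24781427), to the right of the start and inside the noncoding gene Gm29824, was called at 2i and at every day from D1 to D8, with fold enrichments from 3.46 at D1 to 7.72 at D3, and at neither D10 nor D15. An early-lost region inside the body at +49.7 kb (chr9:24770216-24770735) was called at 2i, D0, D4, D7 and D8, at fold enrichments of 2.07 to 3.93. The transient region at +90.9 kb (chr9:24811416-24811965) had values of 5.55 at D5, 4.06 at D6 and 5.47 at D7.

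A region at +98.0 kb (chr9:24818607-24819032) was called at 2i alone, with a fold enrichment of 7.79 at the 84.6th percentile of that list. It falls outside the naming rule and was picked after its values were seen. Tbx20 had 1 transient region of 7, and 64.7% of the 2320 genes with 6 to 8 regions had at least as many. Its region counts had the narrowest range of the 5 genes, between 2 and 4 in each list from 2i to D8 and 1 each at D10 and D15. All Tbx20 regions called at D3 were also called at D4.

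**Figure D4:**
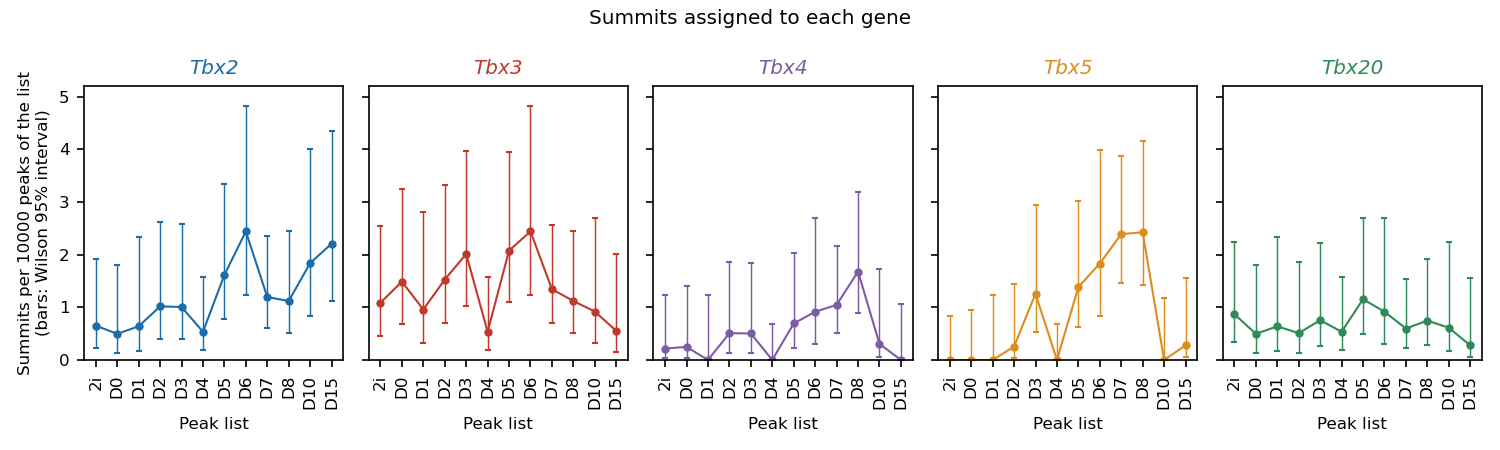
Summits assigned to each gene per 10000 peaks of the list (y axis) at each time point (x axis). Points are single pooled lists and bars are Wilson 95% intervals, which cover counting error only. Tbx5 is at 0 at 2i, D0, D1, D4 and D10 and near 2.4 at D7 and D8. Within each of Tbx2, Tbx3 and Tbx20, the intervals of all lists overlap.

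Tbx2, a repressor of chamber genes, is 9.33 kb long (chr11:85832615-85841948) and had 2 regions called in all 12 lists. The region over its left end (chr11:85832030-85833411) had fold enrichments from 3.22 at D4 to 9.95 at D3, and its percentile had a median of 59.5 over the 12 lists. The region at +11.5 kb, 2.13 kb beyond its right end (chr11:85843204-85844947), had fold enrichments from 3.27 at D1 to 8.13 at D3. It was 1744 bp wide, the widest of the 54, and its summits lay up to 1113 bp apart between lists.

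In these 2 regions the number of summits differed more than the calls did. At D15 the left-end region held 3 summits and the +11.5 kb region 5, against 2 and 1 at 2i. The share of list peaks at Tbx2 was accordingly 2.21 per 10000 at D15 (interval 1.12 to 4.35) and 0.652 at 2i (0.222 to 1.92), while the number of regions called was 2 in both. Those intervals overlapped.

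The other 5 regions of Tbx2 were called at none of 2i, D0, D1, D2, D4, D10 and D15. The region against its right end, at +9.5 kb (chr11:85841953-85842314), was called at D3, D5, D6 and D7 with fold enrichments of 3.42, 2.94, 3.06 and 3.62. The regions at +5.5 kb (chr11:85837895-85838330; D5, D6 and D7) and at -2.6 kb (chr11:85829694-85830313; D6, D7 and D8) had no fold enrichment above 3.23. Tbx2 had 4 transient regions of 7, and 2.24% of the 2320 genes with 6 to 8 regions had at least as many. With equal lists it had 0.

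Tbx3, the repressor that also acts in the conduction system and in naive cells, is 14.2 kb long (chr5:119670534-119684724), and 13 of its 15 regions lay outside the body. The region over its left end (chr5:119669952-119671293), where the noncoding gene Tbx3os1 overlaps, was called in all 12 lists. Its fold enrichment ran from 5.72 at D4 to 13.2 at D3, the highest value of any of the 54 regions in any list. The D3 list had the highest median fold enrichment of the 12 lists, 6.39, and the region stood at its 78.3rd percentile. It stood at the 91.0th percentile at 2i and the 88.8th at D15. Tbx3 had regions called in every list, with 4, 4 and 3 from 2i to D1, 5, 7 and 3 from D2 to D4, 8, 8, 9 and 5 from D5 to D8, and 2 and 1 at D10 and D15.

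Tbx3 had 3 early-lost regions, the most of the 5 genes. The region inside its body at +9.9 kb (chr5:119679862-119681002) was called in 9 lists, with fold enrichments of 6.24, 5.47, 4.48, 4.01 and 7.44 from 2i to D3. It was missing at D4, D10 and D15, and had values of 3.16 to 4.39 from D5 to D8. The region at +39.4 kb (chr5:119709503-119710417), on the side towards Tbx5, was called at each time point from 2i to D3 and at D5, with values of 3.70 to 6.62. The third, at -13.4 kb (chr5:119656487-119657859), was called at 2i, D0, D3 and D7, with none above 4.39.

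Left of Tbx3, a second set of regions was called later. The region at -18.9 kb (chr5:119651199-119652128), inside the noncoding gene Tbx3os1, was called from D4 to D10, with fold enrichments of 6.10, 8.08, 11.99, 11.4, 8.59 and 4.56 in the order of these 6 lists. At D7 it stood at the 88.0th percentile of its list. The regions at -48.2 kb (chr5:119622144-119622616) and -26.5 kb (chr5:119643755-119644363) were both called at D5, D6, D7 and D8, with highest values of 6.97 and 6.00, both at D7. Outside this set, the region at +15.4 kb (chr5:119685462-119686378), just beyond the right end, was called from D2 to D6. It had a fold enrichment of 8.10 at D3 and between 3.12 and 4.02 in the other 4 lists.

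Tbx3 had 5 transient regions of 15, and 18.0% of the 438 genes with 14 to 16 regions had at least as many. With equal lists it had 3.

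Tbx4, the hindlimb and lung gene, is 29.7 kb long (chr11:85886367-85916097), and 5 of its 9 regions lay inside the body. No region of Tbx4 was called at D1, D4 or D15. It had 1 region at 2i and at D0, 2 each at D2, D3 and D5, 3 at D6, 6 each at D7 and D8 and 1 at D10. Its left end (chr11:85885884-85886705) was called at D2, D3 and D8, with fold enrichments of 4.34, 6.36 and 2.58.

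One early and several later regions lay within the body of Tbx4. The region at +14.2 kb (chr11:85900190-85900846) had a fold enrichment of 9.32 at 2i, at the 93.2nd percentile of that list and the highest percentile of any region at the 5 genes. It had 4.41 at D0 and 3.52 at D2 and was called in no later list. The region at +24.1 kb (chr11:85909815-85911060) was called from D5 to D10, with values of 5.38, 5.76, 8.57, 5.54 and 3.65. The region at +2.4 kb (chr11:85888313-85889174) had values of 4.14, 4.25, 6.33 and 4.28 from D5 to D8. Beyond the right end, the region at +31.8 kb (chr11:85917336-85918984) was called at D6, D7 and D8, with values of 3.15, 4.27 and 3.99. The region of the stem cell lists and those from D5 on were thus different ones. Tbx4 had 5 transient regions, and 2.13% of the 1362 genes with 8 to 10 regions had at least as many. With equal lists it had 4.

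The neighbouring genes of each pair differed at the early time points. The bodies of Tbx3 and Tbx5 are 111.8 kb apart, and 7 regions of Tbx3 and 2 of Tbx5 lay in the gap. Tbx3 had 4 regions called in at least 1 list of 2i, D0 and D1, and Tbx5 had 0. The bodies of Tbx2 and Tbx4 are 44.4 kb apart, with 4 regions of Tbx2 and 2 of Tbx4 in the gap. From 2i to D1, Tbx2 had its 2 constant regions called and Tbx4 the region at +14.2 kb. In both pairs the longer gene had no constant region, and the shorter gene had its left end called in all 12 lists.

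**Figure D5:**
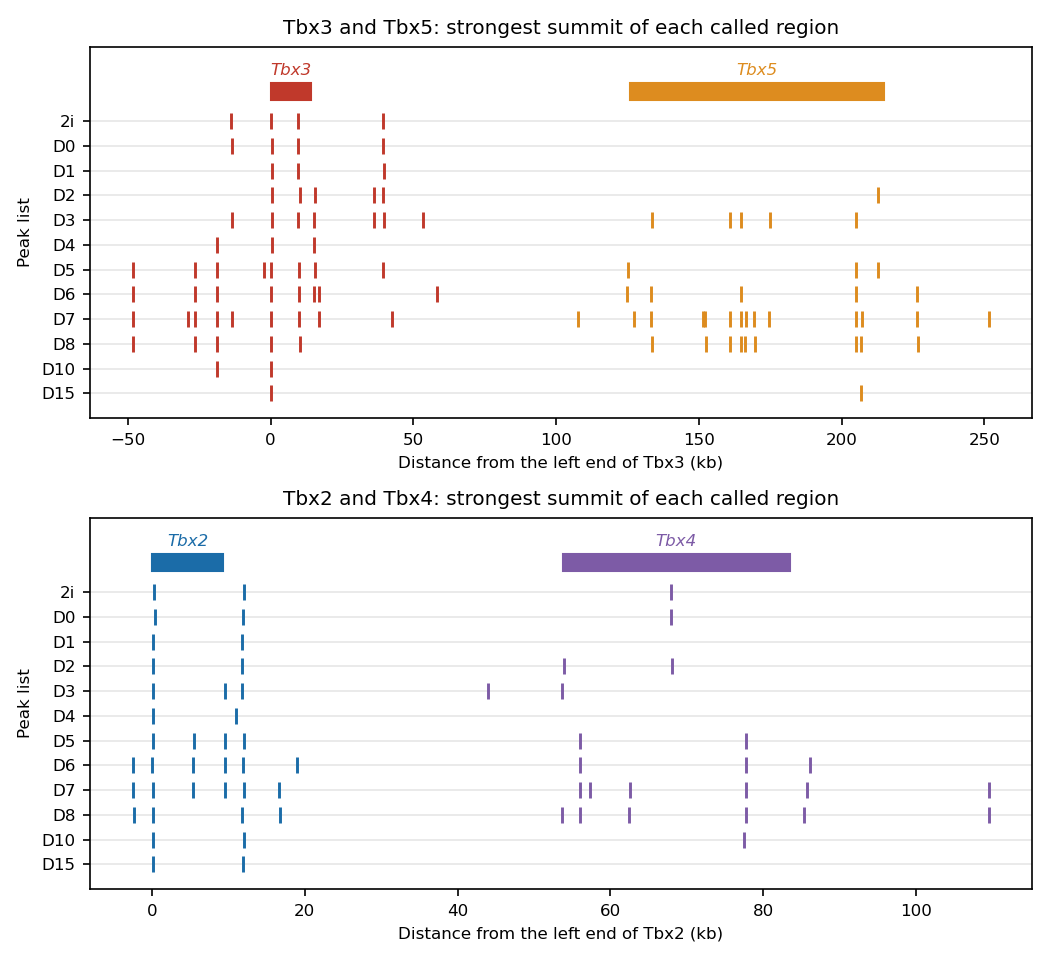
Position of the strongest summit of each called region (x axis, kb from the left end of Tbx3 or Tbx2) in each peak list (y axis), with the gene bodies drawn to scale above. Tbx3 and Tbx2 have calls at their left ends in every list, and the body of Tbx5 is nearly empty until D3 and again at D4, D10 and D15.

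Other genes of the family and of the cardiac network were counted in the same way. At the 12 other T-box genes there were 65 regions, of which 13 (20%) were transient, 10 early-lost and 2 late-gained. Both late-gained regions lay at Tbx19, a factor of the pituitary, which had 3 of its 7 regions called at D15. Eomes had 2 of 8 called at D15, Tbr1 2 of 6, Tbx18 2 of 7 and Mga 2 of 4, and no other gene of the 12 had a region called at D15. At 27 partners and targets of T-box factors there were 227 regions, of which 57 (25.1%) were transient, 14 early-lost and 23 (10.1%) late-gained, the last at 14 genes.

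At D15, 61 of the 227 regions of partners and targets were called, 11 of the 65 of other T-box genes and 5 of the 54 of the members, against 19.5% of all regions. The partners and targets named next, from Gata4 to Smarcd3, were picked as those with most regions called at D15. Gata4, the GATA factor that binds with Tbx5, had 7 of its 16 regions called at D15 and 3 late-gained. Hand2, a factor of the right ventricle, had 7 of 12 called at D15, and 4 of its regions were called in all 12 lists. Ryr2, the calcium release channel, had 6 of 33, and Mef2c, a myocyte factor, 5 of 22. Gja1, a gap junction gene, had 5 of 18. Gata5 had 4 of 11, and Smarcd3, a chromatin remodelling subunit that works with Tbx5, 4 of 7. Other genes of that set had few: Isl1 and Myocd had 1 of 9 each, Nkx2-5 1 of 5 and Myl2 0 of 5. Nppa, a chamber gene activated by Tbx5 and repressed by Tbx2 and Tbx3, had 1 region and none at D15. Of the 27 genes, 23 had a region called at D15. These counts are descriptions and no difference between the lists of genes was tested.

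The genes whose summit shares over the 12 lists were most like each member were found by the sum of absolute differences between the 2 profiles, each scaled to sum to 1, among 8141 genes with at least 20 summits. A sum of 0 means identical profiles. For Tbx5 they were Trpc7 (0.341), Gm536 (0.342) and Tmod1 (0.345), against a median of 1.06 over all these genes. For Tbx4 they were Fstl4 (0.258), Acvrl1 (0.260) and Ajap1 (0.273), with a median of 0.807. For Tbx2 they were Serp2 (0.129), Ccr1 (0.139) and Creb3l1 (0.144), and for Tbx3 they included Notch1 (0.159) and Fbxo21 (0.165). For Tbx20 they were Mrps33 (0.139), Nefl (0.153) and Fam161a (0.160). The profiles of Tbx5 and Tbx4 were thus the farthest from those of other genes by median.

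Markers of several cell types were checked in the same lists. Of 10 cardiomyocyte markers, 3 (Tnnt2, Actn2 and Ryr2) had a peak within 1 kb of a gene end at D10 and at D15, as 3 did at 2i, and Myh6, Myl2 and Tnni3 had none in any list. The summed share of the cardiomyocyte markers was 3.91 at 2i, 5.37 and 5.41 at D7 and D8, and 4.902 and 4.138 at D10 and D15, in summits per 10000 peaks. Of 8 fibroblast and epicardial markers, 2 had one at 2i, 8 and 7 at D7 and D8, and 6 and 7 at D10 and D15. Their summed share was 2.61 summits per 10000 peaks at 2i, 8.81 and 8.39 at D7 and D8, and 9.19 and 9.38 at D10 and D15. Of 8 stem cell markers, 6 had one at 2i and 3 at D15, with summed shares of 10.6 and 3.03. Of 5 smooth muscle markers, 1 had one at 2i and 4 at D15, of 6 endothelial markers 3 at both, of 6 neural markers 3 at both, and of 6 endoderm markers 1 at 2i and 0 at D15. T-box regions in the deposited lists were most numerous at D7 and D8 and fewest at D10 and D15, a count that moves with list length. As a share, T-box summits numbered 6.57 and 7.09 per 10000 peaks at D7 and D8, and 3.68 and 3.31 at D10 and D15. That share was highest at D6, at 8.54, and it was lower at 2i, D0, D1 and D4 than at D15. The fibroblast and epicardial shares were similar at D7, D8, D10 and D15. Those of every other marker set were lower at D10 and D15 than at D7 and D8. From D7 and D8 to D10 and D15, neural shares went from 6.42 and 5.97 to 1.53 and 2.48. Smooth muscle shares went from 3.28 and 3.54 to 1.84 and 2.76, and endoderm shares from 3.43 and 1.68 to 0.613 and 0.552. Endothelial shares went from 7.16 and 6.34 to 5.21 and 5.52, and stem cell shares from 5.52 and 5.41 to 3.68 and 3.03. The part of cell composition in the counts of T-box regions was not tested.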

How the data were processed

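ATAC-seq was made from 24 samples, per the labels' protocols from detergent-lysed nuclei. The submitters' processing notes name cutadapt 2.10, Bowtie2 2.3.2, SAMtools 1.5, Picard, MACS2 2.1.1 and the mm10 build. Tool settings, the merging of replicates, any transposase shift of reads and sequencing depth were, for the sources used here, not given. The files analysed were 12 deposited peak lists, without the signal tracks. For every peak the deposited columns hold an interval, a summit position, a fold enrichment (a linear ratio) and the −log10 of its p-value and q-value, all from the authors' peak caller. The smallest −log10 q was between 1.30 and 1.31 in each list.

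Peaks were merged into regions, and a list held a region if a peak overlapped it by at least 1 bp. Summits were assigned to gene bodies of the RefSeq table of GRCm38.p6 (21631 protein-coding genes), which gives no strand. Regions were named with coordinates if they had a summit within 1 kb of a gene end, were called in 5 or more lists, were transient, early-lost or late-gained in 3 or more lists, or had the highest fold enrichment of their gene. Of the genes with the most similar profiles, 1 is not reported here. The members, lists and classes were chosen with earlier results of these data known. Shares have Wilson 95% intervals (statsmodels 0.14.6), and a share of 0 allows up to 3 counts, both for counting error only. No test was run, as no list has a replicate. Scripts used Python 3.11.15 with pandas 2.3.3 and were tested on simulated peak lists. Alternatives covered the peak threshold, list length, distance, other genes, region definition, overlap, stages and lists left out.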

Additional observations from a re-analysis of the deposited data

How the results depend on the processing

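No late-gained region and 24 transient regions of 54 were found at the 5 genes. Of 57 recomputed counts, 40 stayed within 1.5 times the reported one. With peaks of −log10 q of at least 5, 36 regions were found at the 5 genes. Of these, 2 were called in all 12 lists (against 10.8% of all regions), 2 were early-lost (against 8.23%) and 15 transient (against 18%). With equal numbers of peaks these counts were 2, 3 and 10 of 38 (against 11.8%, 9.72% and 10.9% of all regions). Runs of at least 3 lists left 13 transient regions of 54 (against 4.07% of all regions). Late-gained regions numbered 2 of 77 within 100 kb and 1 of 59 with other protein-coding genes counted (both against 3.8% of all regions), 1 of 64 with summits joined within 250 bp (against 3.69%) and 1 of 54 with D15 alone as the late stage (against 7.71%). Where peaks had to cover 50% of a region, 0 of 54 were called in all lists (against 4.88% of all regions). In that setting, 1 was late-gained (against 3.19%) and 3 were early-lost (against 8.29%). Within 20 kb, 9 of 42 were called in 1 list (against 43.7% of all regions). Without the D7 list, transient regions numbered 16 of 47 (against 9.42% of all regions). Chosen after seeing the data, leaving out D7 and D8 gave 11 of 41 (against 9.12%), and calls in either early or either late list gave 3 late-gained of 54 (against 11.7%). The causes of these shifts were not tested. No paired analysis was possible because both replicates of a time point share 1 peak list, and leaving out a replicate could not be run for the same reason. Read depth is not given, so a site missing from a list may lie under its detection limit.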

Other observations

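Regions beyond the limits of the member rule included sites that were called late. Between 50 and 100 kb from a member, 23 further regions had a member as the nearest gene: 11 at Tbx5, 7 at Tbx3, 5 at Tbx20 and 0 at Tbx2 and Tbx4. Of these, 8 were transient and 2 late-gained. One late-gained region lay 62.7 kb beyond the right end of Tbx5 (chr5:119947380-119948555) and was called at D6, D7, D8, D10 and D15, with its highest fold enrichment, 7.36, at D8. The other lay 95.3 kb left of Tbx3 (chr5:119574756-119575656) and was called at every time point from D4 to D15, with its highest fold enrichment, 10.1, at D7. A region 74.0 kb beyond Tbx5 (chr5:119958685-119959699) was called from D5 to D10 and reached 11.7 at D8, at the 91.6th percentile of that list, above every region of Tbx5 within 50 kb. These regions were chosen after their values were seen, and which gene they act on was not tested.

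Inside Bcas3, the gene to the left of Tbx2, 4 regions lay within 50 kb of Tbx2. The region 32.6 kb away (chr11:85799383-85800580) was late-gained and called from D5 to D15, with a highest fold enrichment of 7.60 at D8. The region 14.1 kb away (chr11:85818063-85818877) was called from D4 to D8 and reached 11.1 at D7, and the region 28.3 kb away (chr11:85804093-85804611) was called from D4 to D7 and reached 6.79 at D4. No Tbx2 region counted under the member rule other than its 2 constant ones was called at D4. Inside Dpy19l2, 24.6 kb from Tbx20, a region (chr9:24695725-24696711) was called in all 12 lists.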
